A study of Mus musculus with 2 samples.

Results

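The genes described here are the 4 surfactant protein genes of the mouse, Sftpa1, Sftpb, Sftpc and Sftpd, taken by symbol from the 32285 genes of a Visium experiment on lung sections. Visium captures polyadenylated RNA on barcoded spots under a tissue section, and each spot covers several cells, so its counts mix the cell types beneath it. Of the 2 sections, the control lung came from an untreated mouse and the metastatic lung from a mouse whose mammary fat pad had received 4T1 cells (4T1 m.f.p.), a line from a mouse mammary tumour that seeds the lung. The study's methods describe this model in female Balb/c mice 6 to 8 weeks old, with 1000000 cells injected and lungs taken 21 to 23 days later; the strain and age of the control mouse were not given apart. Both sections were permeabilised for 18 min. The study's methods name 1 slide, in describing the metastatic lung, and do not state whether the control section lay on it. With 1 section per condition, whether they differ by condition or by animal, library or the part of the lung that was cut cannot be told apart, spots are not replicates, and no p-value is given. All intervals below are 95% intervals that cover counting error only.

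Surfactant lowers the surface tension of the air-liquid interface of the alveolus and keeps it from collapsing. SP-B and SP-C, encoded by Sftpb and Sftpc, are small hydrophobic proteins that spread the lipid film. SP-A and SP-D, encoded by Sftpa1 and Sftpd, are collectins, soluble lectins that bind microbes and take part in surfactant turnover. Alveolar type II (AT2) cells make all of them and store the lipid in lamellar bodies, Sftpc is held to be the most AT2-restricted of the 4, and airway club cells are known to make some of the others. A pair of marker genes that enter no member served as axes: Cyp2f2, a cytochrome P450 of club cells, for airway content, and Ager, a receptor abundant in alveolar type I (AT1) cells of the gas-exchange wall, for alveolar content.

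On the mouse build GRCm38 (mm10), Sftpa1 spans chr14:41131782-41136452 on the plus strand and Sftpd chr14:41172214-41185149 on the minus strand, with 35761 bases between them. Sftpc lies elsewhere on the same chromosome, at chr14:70520949-70524081 on the minus strand, and Sftpb at chr6:72304610-72314371 on the plus strand. No other annotated gene overlapped any of them, while Cyp2f2 overlaps an antisense gene, Gm15883. The 250 bases before the start are shown for Sftpa1 and Sftpb, a collectin gene and a hydrophobic protein gene. These were the 2 of the 4 members that matched a promoter entry, so the pair was set by what was available. Both genes are held to be driven by the lung factor NKX2-1. The sequences come from RefSeq on GRCm38.p6, at chr14:41131538-41131787 and chr6:72304360-72304609, both on the plus strand. Capitals mark CTCAAG, the core letters of the NKX2-1 motif. The Sftpa1 window ends inside the span given above, as it is placed on the RefSeq start and the span is from GENCODE. Distances below are from the RefSeq start.
Sftpa1: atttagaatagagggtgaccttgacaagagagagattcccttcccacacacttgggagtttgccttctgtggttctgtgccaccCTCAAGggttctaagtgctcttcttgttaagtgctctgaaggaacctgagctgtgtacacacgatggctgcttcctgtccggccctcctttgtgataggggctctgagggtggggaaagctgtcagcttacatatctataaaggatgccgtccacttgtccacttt
Sftpb: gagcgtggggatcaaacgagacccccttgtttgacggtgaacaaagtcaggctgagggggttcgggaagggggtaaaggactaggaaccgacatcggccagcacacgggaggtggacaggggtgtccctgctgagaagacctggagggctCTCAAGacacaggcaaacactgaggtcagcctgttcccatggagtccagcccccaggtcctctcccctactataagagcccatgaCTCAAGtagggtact
CTCAAG occurred 1 time in the Sftpa1 window, beginning 166 bases before the start, and 2 times in the Sftpb window, beginning 100 and 15 bases before it. On either strand, 13.3% of 32536 promoter windows of this length held it. The AP-1 motif TGANTCA, which reads the same on both strands, began 18 bases before the Sftpb start and shared bases with the nearer CTCAAG, and 6.73% of windows held it. TGTTTAC, the core letters of the FOXA motif, was in neither window and in 3.17% of all windows. These matches describe letters and not bound sites.

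There were 1888 control spots with 20329126 counts in all and 9644 in the median spot, and 1110 metastatic spots with 14657881 and 11334. Levels are given as CP10k, counts of unique molecules per 10000 counts of the same spots, a scale that does not depend on transcript length because molecules were counted from one end. Scgb1a1, the main secretory product of club cells, took 15.2% of all counts in the control and 18.4% in the metastatic section, and 52.4% and 54.6% in the tenth of spots with most Cyp2f2, so that in airway spots every other gene has a lower CP10k for the same number of molecules. Results that turn on this are given on both scales. As a check of the axes, without the gene that ranked the spots, 5 of 5 other club markers with enough counts were more than 1.5-fold higher in the fifth of spots with most Cyp2f2 than in the fifth with least in each section, where 6.37% of all genes were in the control and 6.69% in the metastatic section. Over Ager, 8 of 8 other AT1 markers were higher in each section, but so were 74.9% of all genes in the control and 39.0% in the metastatic section.

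Sftpc was the most abundant of the 4 genes and Sftpd the least abundant. In the control section, Sftpc had 241.7 CP10k over all spots (241.0 to 242.4), with spots from 0 to 786.8, a median of 270.8 and middle values from 183.7 to 350.0. Sftpb had 28.1 CP10k (27.9 to 28.3; spots from 0 to 102.7, median 29.9) and Sftpa1 23.8 (23.6 to 24.0; spots from 0 to 100.9, median 21.9). Sftpd had 5.74 CP10k (5.63 to 5.84; spots from 0 to 37.8, median 5.41). Summed counts of Sftpc were thus 10.2 times those of Sftpa1, 8.61 times those of Sftpb and 42.1 times those of Sftpd. Levels in the metastatic section were 128.5 CP10k for Sftpc, 20.1 for Sftpa1, 18.0 for Sftpb and 3.81 for Sftpd, so that Sftpa1 stood above Sftpb there and below it in the control section.

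**Figure D1:**
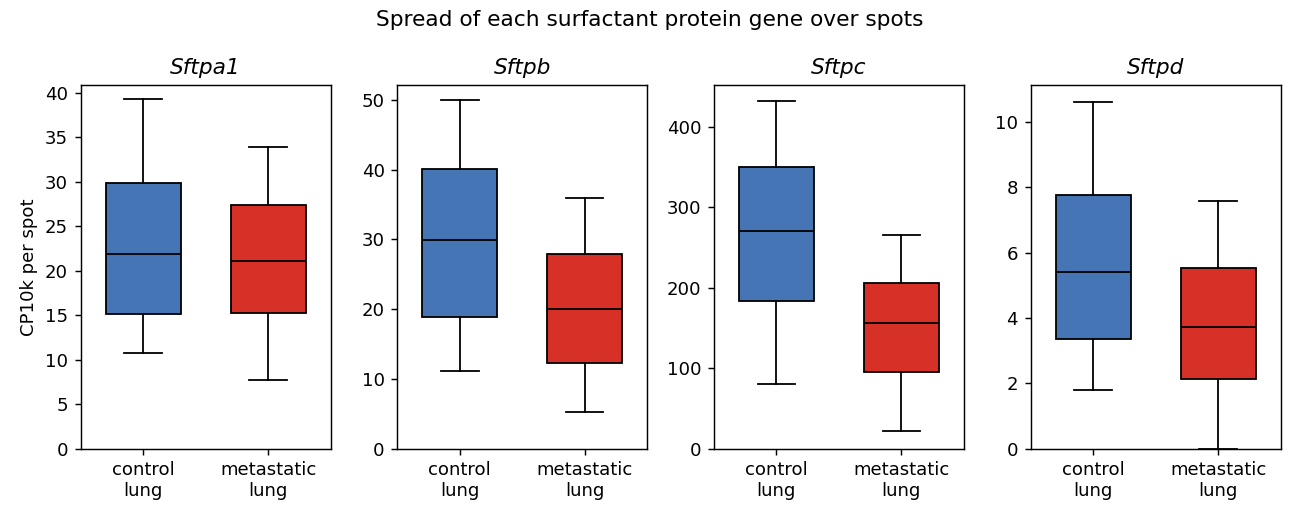
Level of each gene per spot (CP10k, linear axis from 0, a scale of its own in each panel) in the 1888 spots of the control and the 1110 spots of the metastatic lung; boxes span the quartiles, lines mark medians, and whiskers run from the 10% to the 90% point of spots. The median spot of Sftpc was 270.8 in the control and 155.4 in the metastatic lung, while that of Sftpa1 was 21.9 and 21.1.

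Nearly every spot had counts of these genes. In the control section the share of spots with a count was 99.9% for Sftpc, 99.7% for Sftpb, 99.3% for Sftpa1 and 94.5% for Sftpd. Beyond counting error, the coefficient of variation between spots was 69.8% for Sftpc, 55.0% for Sftpb, 43.8% for Sftpa1 and 37.5% for Sftpd in the control section, and 76.5%, 59.5%, 47.9% and 47.2% in the metastatic section. By the ratio of the upper to the lower quartile of spots, the control order was another, with 1.91 for Sftpc, 1.98 for Sftpa1, 2.12 for Sftpb and 2.31 for Sftpd. Neighbouring spots' likeness followed the order of the coefficient of variation: Moran's I over adjacent spots was 0.54 for Sftpc, 0.40 for Sftpb, 0.30 for Sftpa1 and 0.14 for Sftpd in the control section, and 0.59, 0.49, 0.41 and 0.18 in the metastatic one. Moran's I is lower for sparse genes, so the place of Sftpd in it also carries its depth. In the 1031 alveolar spots of the control section (the upper 2 of 3 classes of Ager and the lower 2 of 3 classes of Cyp2f2), the order changed: Sftpa1 varied by 40.1%, Sftpd by 32.2%, Sftpc by 28.3% and Sftpb by 27.0%. The 520 such spots of the metastatic section did not share that order. There the genes lay close together, at 28.3% for Sftpa1, 28.4% for Sftpb, 30.0% for Sftpc and 31.0% for Sftpd.

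Over airway content, the 4 genes parted. In the control section, Sftpc stood at 322.3 CP10k in the fifth of spots with least Cyp2f2 and at 86.6 in the fifth with most, a ratio of 0.269 (0.266 to 0.271). Sftpb went from 36.0 to 14.7 CP10k, a ratio of 0.408 (0.396 to 0.419). The collectin genes moved less, Sftpd from 6.24 to 4.42 CP10k, a ratio of 0.709 (0.667 to 0.752), and Sftpa1 from 24.8 to 20.8, a ratio of 0.838 (0.814 to 0.863). Ager went from 36.0 to 7.62 CP10k over the same spots. Sftpb and Sftpc, 2 of the 4, were thus more than 1.5-fold lower in airway-rich spots, where 76.2% of the 10978 genes compared were, at a median ratio of 0.503 over those genes, and 6.37% were as much higher. The hydrophobic protein genes lay below that median and the collectin genes above it, with 85.9% of genes lower in ratio than Sftpa1 and 6.07% lower than Sftpc. When the library size omitted Scgb1a1 and other abundant genes, the ratio was 1.45 for Sftpa1 and 1.23 for Sftpd, turned to higher in airway-rich spots, and 0.706 for Sftpb and 0.465 for Sftpc, still lower.

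**Figure D2:**
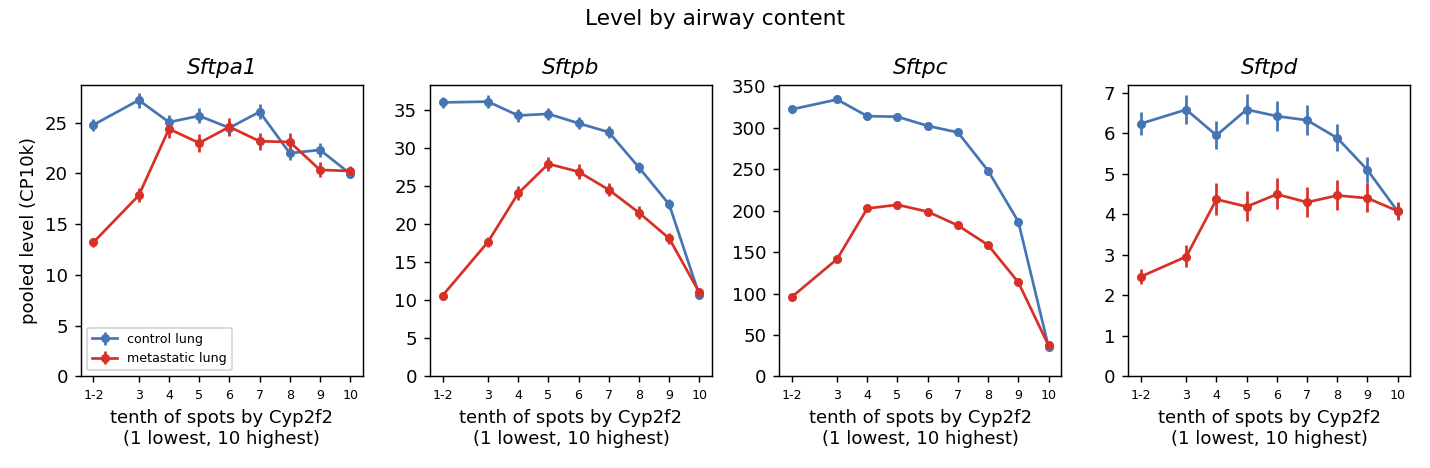
Pooled level of each gene (CP10k, linear axis from 0) in spots ranked by Cyp2f2 within each section; each point is 10% of spots, except that the lowest 20% are pooled because 215 metastatic spots without a Cyp2f2 count cannot be ranked. Bars are 95% counting intervals. In the tenth with most Cyp2f2, the sections met in all 4 panels, at 35.7 and 37.4 CP10k for Sftpc and at 19.96 and 20.2 for Sftpa1.

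The ratio of 2 genes in the same spots is free of the library size, and by it Sftpa1 and Sftpd parted most from Sftpc. Relative to Sftpc, the fifth of control spots with most Cyp2f2 had 3.12 times as much Sftpa1, 2.64 times as much Sftpd and 1.52 times as much Sftpb as the fifth with least. The metastatic section gave 2.39, 2.65 and 1.95. The make-up of the surfactant protein transcripts changed mainly in the tenth of spots with most Cyp2f2. Sftpc made up 82.8% of the counts of the 4 genes in the fifth of control spots with least Cyp2f2 and 50.7% in the tenth with most, while Sftpa1 went from 6.37% to 28.4%, Sftpb from 9.25% to 15.2% and Sftpd from 1.60% to 5.78%. The metastatic section ended at nearly the same make-up, with 51.4% Sftpc, 27.8% Sftpa1, 15.2% Sftpb and 5.61% Sftpd in the tenth with most Cyp2f2.

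**Figure D3:**
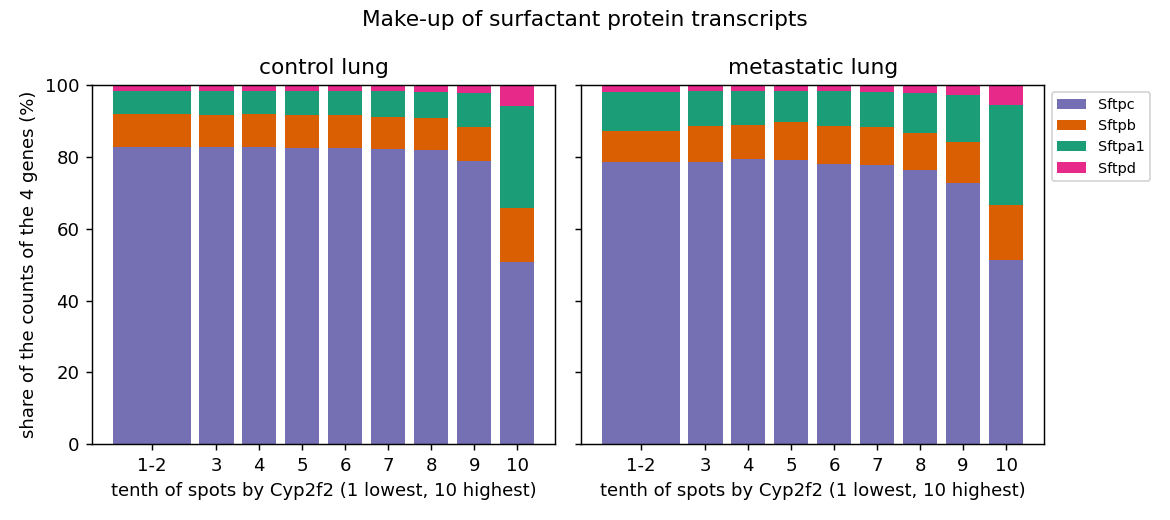
Share of each gene in the summed counts of the 4 genes (stacked bars, percent) in spots ranked by Cyp2f2, each bar holding 10% of spots and the first 20%, for the control (left) and metastatic (right) lung. Sftpc holds 82.8% of the first control bar and 50.7% of the last, where Sftpa1 holds 28.4%.

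At the airway end, Sftpa1 reached the level of Sftpc. In the 94 control spots that form the twentieth with most Cyp2f2, Sftpa1 stood at 23.6 CP10k (22.9 to 24.2) and Sftpc at 22.9 (22.3 to 23.6), whose intervals overlap. In the 55 such spots of the metastatic section, Sftpa1 stood at 19.6 (18.9 to 20.2) and Sftpc at 25.2 (24.5 to 25.9), which do not. Single spots with more Sftpa1 than Sftpc numbered 66 in the control section, and all 66 lay in the tenth of spots with most Cyp2f2; of 35 in the metastatic section, 34 did. Those 66 spots together had 24.6 CP10k of Sftpa1, 7.20 of Sftpc and 0.73 of Ager. More Sftpb than Sftpc was counted in 38 control and 15 metastatic spots, and more Sftpd than Sftpc in 13 and 6.

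**Figure D4:**
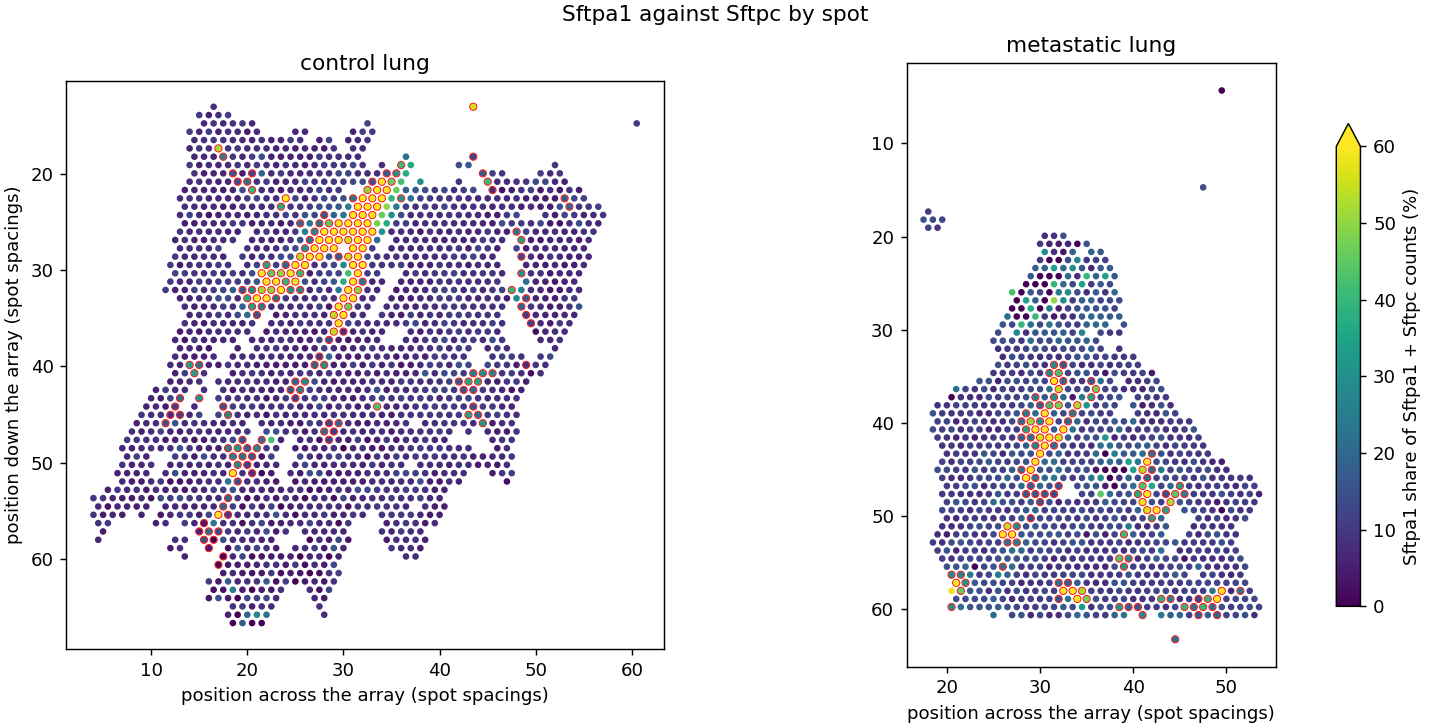
Sftpa1 counts as a share of Sftpa1 and Sftpc counts in each spot (colour, percent; 60% and more share one colour) at the spot's place on the array (axes in spot spacings, drawn to scale); red rings mark the tenth of spots with most Cyp2f2 in each section. Spots of high share mostly follow the ringed spots, with some unringed exceptions in the upper part of the metastatic section, and all 66 control spots above 50% are ringed.

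Airway spots were not alike among themselves. Over the 188 control spots of the tenth with most Cyp2f2, Sftpb and Sftpc followed each other and Ager (Spearman's rho 0.76 between them, 0.81 for Sftpc with Ager), while Sftpa1 followed neither (rho -0.10 with Sftpc and -0.21 with Ager). These correlations are over spots of 1 library and are descriptions. When the 188 spots were parted into equal groups by Scgb3a2, another club cell secretoglobin, Sftpa1 was higher in the 94 spots with more of it, at 23.5 against 14.7 CP10k, a ratio of 1.60 (1.52 to 1.68). Sftpc was lower there, at 19.2 against 60.6 CP10k, as was Sftpb, at 8.68 against 13.7, while Sftpd had 3.94 against 4.27, a ratio of 0.924 (0.836 to 1.02). Ager fell alongside Sftpc, from 6.53 to 1.41 CP10k. The marker chosen mattered for Sftpa1. Over the 188 control spots its rho was 0.54 with Scgb3a2, -0.23 with Scgb1a1 and 0.61 with the mucous cell marker Muc5b. Over the metastatic airway spots its rho was -0.03 with Scgb3a2 and -0.42 with Scgb1a1. The same split of metastatic spots gave Sftpa1 19.97 against 20.7 CP10k, a ratio of 0.966 (0.918 to 1.02), Sftpb a ratio of 0.661 and Sftpc one of 0.352, and rho between Sftpa1 and Sftpc in airway spots was 0.52. Scgb3a2 itself was lower in those metastatic airway spots, at 51.4 against 88.4 CP10k in the control, and markers of mucous cells (Muc5b, Bpifb1 and Reg3g) summed to 3.92 CP10k in the fifth with most Cyp2f2 in the control section and to 0.097 in the metastatic section. The sections thus held airways of unlike make-up, and the part of this in the Sftpa1 difference was not tested.

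The parting was also seen by distance on the array, though its starting spots are the airway spots already compared, so it is not separate evidence. Sftpc rose from 35.7 CP10k in the airway spots (the tenth with most Cyp2f2) to 227.3 at 1 step, 283.1 at 2 steps and 311.0 at 3 steps in the control section. Ager rose alongside, from 3.45 to 21.6, 29.0 and 34.0 CP10k. Sftpb went from 10.7 to 26.2 at 1 step and 33.9 at 3 steps. Sftpa1 stayed within 19.96 to 26.2 CP10k over all distances and Sftpd within 4.07 to 6.55. Around metastatic airways, Sftpc went from 37.4 to 136.3 at 1 step and 192.1 at 3 steps, Sftpa1 from 20.2 to 21.3 and 24.1, and all 4 were lower again at 6 and more steps, where Ager had 9.50 CP10k.

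**Figure D5:**
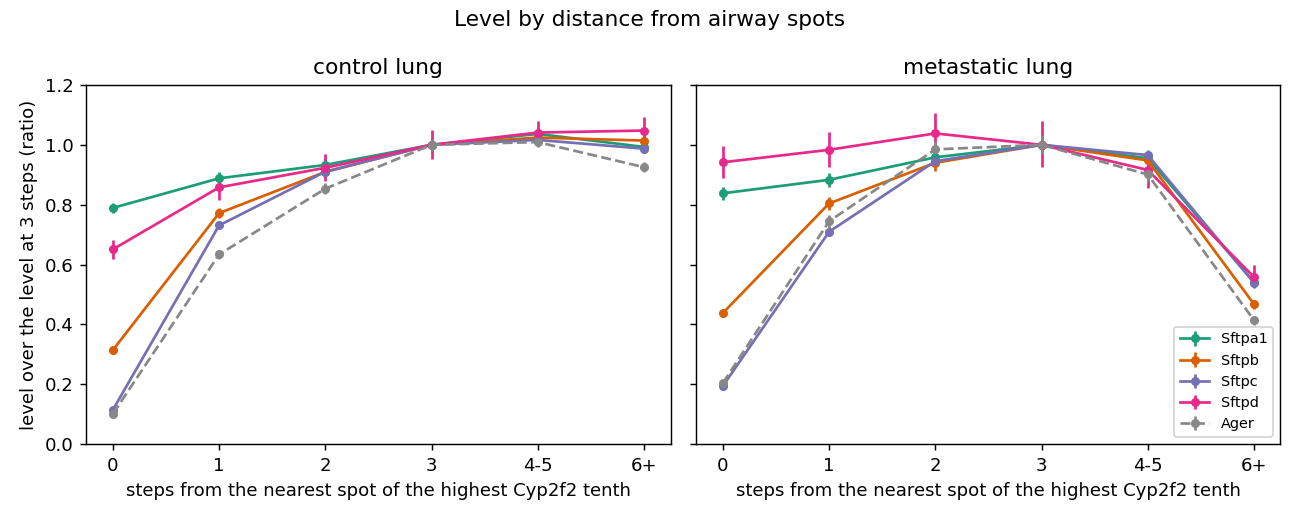
Pooled level at each number of array steps from the nearest airway spot (the tenth with most Cyp2f2, 0 steps), divided by the gene's own level at 3 steps (linear axis from 0; bars are 95% counting intervals of the level). Sftpc (purple) follows Ager (grey dashes) from near 0.1 in the control and near 0.2 in the metastatic lung to 1, Sftpb lies between, and Sftpa1 and Sftpd start highest in both sections.

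In counts per spot, with no library size, the collectin genes were higher and the hydrophobic protein genes lower in airway than in alveolar spots of the control section, while in CP10k all 4 were lower. Counts per spot also carry depth, which was higher in airway-rich spots. The median control spot held 12027 counts in the fifth with most Cyp2f2 and 7304 in the fifth with least. The 402 control spots high in Cyp2f2 and low in Ager (upper and lower of 3 classes each) had on average 31.7 counts of Sftpa1, and the 319 spots low in Cyp2f2 and high in Ager 21.9. Sftpd had 6.97 and 5.53 counts per spot in them, Sftpb 22.1 and 32.4, and Sftpc 135.8 and 287.6. In CP10k, the ratio between these airway and alveolar spots was 0.821 for Sftpa1, 0.716 for Sftpd, 0.387 for Sftpb and 0.268 for Sftpc, where 75.4% of genes were more than 1.5-fold lower and 7.01% as much higher. In the metastatic section, between 150 and 100 such spots, it was 0.772 (0.736 to 0.809) for Sftpa1, 0.943 (0.843 to 1.06) for Sftpd, 0.424 (0.403 to 0.445) for Sftpb and 0.206 (0.202 to 0.210) for Sftpc, where 79.0% of genes were more than 1.5-fold lower and 4.47% as much higher. Sftpb and Sftpc passed that fold in both sections and the collectin genes in neither. Counts of Sftpa1 per spot were 45.6 in those metastatic airway spots and 23.6 in the alveolar ones. Sftpd had 9.51 and 4.02 counts per spot in them, and Sftpc 106.7 and 206.8. Sftpb had 27.5 and 25.9, so unlike in the control section it was not lower in the airway spots.

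Over alveolar content, the order was reversed. In the control section, the fifth of spots with most Ager had 4.21 times the Sftpc level (4.16 to 4.26), 2.80 times the Sftpb level, 1.46 times the Sftpd level and 1.23 times the Sftpa1 level of the fifth with least. In that comparison 74.9% of genes were more than 1.5-fold higher, as were 2 of the 4, and 7.64% as much lower, as was no member, at a median ratio of 2.05. Metastatic ratios were 6.66, 4.16, 1.57 and 1.93, so that all 4 members passed 1.5-fold, where 39.0% of genes did, 13.9% were as much lower and the median ratio was 1.29. The metastatic ratio of Sftpd did not pass with a library size that omitted the abundant genes (1.32) or without the tumour-marker-rich spots described below (1.35), and in counts per spot those of Sftpa1 and Sftpd turned to 0.961 and 0.785. With the library size so reduced, the control ratios of Sftpa1 and Sftpd were 0.710 and 0.839, lower in spots with most Ager. In the control section the levels rose only at the low end: from the fifth of spots in the middle of Ager to the fifth with most, Ager went from 28.9 to 50.2 CP10k, while Sftpc went from 332.2 to 315.6 and Sftpa1 from 27.1 to 23.9. Within alveolar spots of the control section, rho with Ager was -0.04 for Sftpc, -0.06 for Sftpb, -0.05 for Sftpd and -0.07 for Sftpa1, and all 4 followed each other (rho 0.69 for Sftpa1 with Sftpc, 0.66 for Sftpb with Sftpc, 0.47 for Sftpd with Sftpc). Within those of the metastatic section, rho with Ager was 0.10 for Sftpc, 0.15 for Sftpb, -0.07 for Sftpd and 0.02 for Sftpa1.

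In the metastatic section, spots low in both contents held less Sftpa1, Sftpb and Sftpd than spots low in Ager and high in Cyp2f2. The 192 spots low in Cyp2f2 and Ager had 10.1 CP10k of Sftpa1, 6.39 of Sftpb, 62.6 of Sftpc and 1.91 of Sftpd. The 150 spots equally classed as low in Ager but high in Cyp2f2 had 19.6, 11.8, 45.9 and 4.09. The level in spots high in Cyp2f2 over that in spots low in both was thus 1.94 for Sftpa1 (1.86 to 2.03), 2.14 for Sftpd (1.93 to 2.36), 1.85 for Sftpb (1.75 to 1.96) and 0.734 for Sftpc (0.718 to 0.750). Ager was not equal between these classes, at a ratio of 1.70 (1.56 to 1.86), and Mki67, a marker of dividing cells, had 1.01 CP10k in the spots low in both and 0.063 in the others; their part in the ratios was not tested. The same comparison in the control section, of 402 and 93 spots, gave ratios below 1 for all 4 genes, at 0.887 for Sftpa1, 0.559 for Sftpb, 0.338 for Sftpc and 0.855 for Sftpd, with Ager at 0.439. Over Cyp2f2 alone, the airway ratios of Sftpa1, Sftpb and Sftpd ran the other way in the metastatic section from the control: the fifth with most Cyp2f2 over the fifth with least gave 1.53 for Sftpa1, 1.70 for Sftpd, 1.25 for Sftpb and 0.641 for Sftpc. There the median ratio over all genes compared was 0.537, below the ratios of all 4 members. Of those genes, 6.69% were more than 1.5-fold higher, as were Sftpa1 and Sftpd. Another 68.4% were as much lower, as was Sftpc, though 65.0% of genes had a lower ratio than Sftpc. These calls did not hold under some other settings. Sftpa1 and Sftpd were at 1.15 and 1.28 after thinning each spot to 5000 counts, at 1.27 and 1.45 without the tumour-marker-rich spots, and at 0.884 and 1.06 between classes of 10% of spots. Sftpb was at 0.955 after thinning, and Sftpc turned to 1.25 with a library size that omitted the abundant genes and to 1.06 in counts per spot. The fifth with least Cyp2f2 had 8.23 CP10k of Ager, against 36.0 in the control section, and held 26 of the 34 tumour-marker-rich spots.

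Tumour-marker-rich spots together held less of each surfactant gene than far spots, and their patches differed. They were the 34 spots, in 6 patches, that ranked in the top 6% by a list of proliferation and epithelial genes and touched at least 2 others of that rank. Mki67 and the keratins Krt8 and Krt18 are in that list, so their levels there, at 16.3, 2.23 and 2.40 times those of the 816 spots more than 5 steps away, describe the choice and are no test of it. Sftpc stood in these spots at 0.136 (0.129 to 0.143) of its 147.1 CP10k in the far ones. Sftpa1 had 3.63 CP10k in them and 22.7 in the far spots, Sftpb 2.08 and 21.1, and Sftpd 0.897 and 4.28. Ager stood at 1.51 CP10k, below the 3.45 of the control airway spots, in which Sftpa1 had 19.96. Among the 6 patches, Sftpa1 ran from 0.619 CP10k in the largest, of 18 spots, to 17.1 and 26.5 in a pair of patches of 2 spots each. Sftpc ran from 7.33 in the largest patch to 104.8 in the patch highest in Sftpa1, where Sftpd had 4.82. Mki67 was at 0.301 CP10k in that patch and at 1.33 to 2.36 in the other patches. That patch has 2 spots and no interval is given, so its collectin levels are not told apart from the far levels. At 1 to 2 steps from these spots, the level over that of far spots was 0.498 for Sftpc, 0.400 for Sftpb, 0.576 for Sftpa1 and 0.611 for Sftpd, against 0.245 for Ager and 0.277 for Cyp2f2. At 3 to 5 steps it was 0.814 to 0.851 for the 4 genes, 0.683 for Ager and 0.528 for Cyp2f2. The tumour markers moved with these distances: Mki67 was at 8.76 times its far level at 1 to 2 steps and at 5.26 times at 3 to 5 steps, and Krt18 at 1.65 and 1.10 times. Their part in the lower surfactant levels was not tested.

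The difference between the sections varied with the gene and with the spots compared. Over all spots, the metastatic level over the control level was 0.532 for Sftpc (0.529 to 0.535), 0.642 for Sftpb (0.633 to 0.652), 0.665 for Sftpd (0.644 to 0.687) and 0.846 for Sftpa1 (0.834 to 0.858). Sftpb, Sftpc and Sftpd were thus more than 1.5-fold lower, as were 11.8% of all genes, with 8.96% as much higher, and Ager was at 0.587. Sftpb and Sftpd did not pass that fold after thinning (0.688 and 0.708) or in counts per spot (0.788 and 0.816), nor Sftpd without the tumour-marker-rich spots and the 50 control spots highest in cardiac muscle genes (0.685), and its interval spans the fold. In spots matched for 20 to 40 CP10k of Ager and at most 10 of Cyp2f2 (293 metastatic, 704 control), the ratios were 0.637 for Sftpc, 0.648 for Sftpd, 0.742 for Sftpb and 0.901 for Sftpa1. Ager was still unequal in these spots, at a ratio of 0.910 (0.887 to 0.933). Of all genes there, 8.86% were more than 1.5-fold lower, as were Sftpc and Sftpd, and 4.62% as much higher. In the tenth of spots with most Cyp2f2 (111 and 188 spots) the ratios were 1.05 for Sftpc (1.02 to 1.07), 1.03 for Sftpb (0.987 to 1.08), 1.01 for Sftpa1 (0.980 to 1.05) and 1.00 for Sftpd (0.930 to 1.08). In the wider class of airway spots, high in Cyp2f2 and low in Ager (150 and 402 spots), the ratio was 0.531 for Sftpc (0.521 to 0.540), 0.840 for Sftpb, 0.921 for Sftpd and 0.972 for Sftpa1, with Ager at 0.697, against 1.36 in the tenth. In spots low in Cyp2f2 and high in Ager (100 and 319 spots), it was 0.692 for Sftpc, 0.700 for Sftpd, 0.767 for Sftpb and 1.03 for Sftpa1 (0.986 to 1.08). Fewer AT2 cells per spot and less RNA per cell cannot be told apart in these counts.

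Slc34a2, a phosphate transporter of AT2 cells, was among the 5 genes whose levels followed each of the 4 members best over spots. Likeness was the lower of the sections' rho over all spots, among 2758 genes of at least 0.5 CP10k in each section. Sftpc and Sftpb were each other's nearest (rho 0.80), followed for Sftpc by Lyz1, a lysozyme of AT2 cells (0.74), Slc34a2 (0.69), Sftpa1 (0.61) and Inmt (0.57), and for Sftpb by Slc34a2 (0.66), Lyz1 (0.65), Inmt (0.54) and Lpcat1, which remodels surfactant phosphatidylcholine (0.51). Nearest to Sftpa1 were Sftpc (0.61), Lyz1 (0.49), Sftpb (0.46), Sftpd (0.40) and Slc34a2 (0.34). Nearest to Sftpd were Sftpa1 (0.40), Sftpc (0.37), Sftpb (0.36), the lung chemokine Cxcl15 (0.32) and Slc34a2 (0.31); its low counts limit these values. Further down the order, Ager was at rank 8 for both Sftpb (0.46) and Sftpc (0.49), and endothelial genes such as Cd36 stood at ranks 6 to 12 beside AT2 genes.

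Over airway content, 12 AT2 markers other than the members had a median log2 ratio of -1.87 in the control section, against -0.99 over all genes, and of -0.73 in the metastatic section, against -0.90. In the control section 10 of the 12 were more than 1.5-fold lower in the fifth of spots with most Cyp2f2. Since 76.2% of all genes were as much lower in the control and 68.4% in the metastatic section, the counts of these lists are given as a description and nothing is read from them about the lists. Lyz1 (ratio 0.248) and Slc34a2 (0.254) lay near Sftpc, Abca3, the lipid transporter of lamellar bodies, at 0.455, and Cxcl15 (0.608) nearer Sftpd. In the metastatic section 8 of 12 were lower and 2 higher, with Cxcl15 at 1.55 and Lyz1 at 0.493. Of 11 genes for surfactant processing and storage, 10 were lower in the control section, among them Ctsh, a protease that matures SP-B and SP-C (0.320), and Lpcat1 (0.259), and 7 in the metastatic section, with 1 higher. Of 9 transcription factors held to act on surfactant genes, 5 were lower in the control section, led in counts by Nkx2-1 (0.372), Etv5 (0.276), Nfib (0.410) and Stat3 (0.448), and 1 higher, Foxa1 (1.85). Among them in the metastatic section, 2 were lower and 3 higher, with Nkx2-1 at 1.58. Of the genes for surfactant clearance and collectin receptors, 7 had enough counts in the control section and all 7 were lower, with Adgrf5, a receptor that restrains the surfactant pool, at 0.217, and in the metastatic section 8 of 9 were lower, with Adgrf5 at 0.977.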

How the data were processed

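Spatial RNA counts were analysed from 1 control and 1 metastatic lung section. Per the labels, the authors used Space Ranger 1.3.1 and mm10, and the deposited counts are unique molecules of each gene in each spot under tissue, not normalized. Spots were ranked within a section by Cyp2f2 or Ager per spot total (ties by total count), counts were summed over spot classes, and levels are sums per 10000 counts (95% intervals, exact Poisson). Exact binomial intervals served for ratios, and ratios relative to Sftpc an interval on the log scale. Genes needed 50 counts over the spots compared, and a 1.5-fold ratio was the call. The sections share 858 barcodes, which name array positions. Thinning to 5000 counts left out 362 control and 82 metastatic spots. Named genes were the members, both axis genes, at most 4 genes per list (those with most counts), and the 5 genes most like each member; Foxa1, Scgb3a2, the mucous markers and the genes that describe tumour-marker-rich spots were named beyond this rule. The members and lists were chosen with earlier results of these data known, and the groups by Scgb3a2 after seeing the values. The steps were tested on simulated data. Python 3.11.15, numpy 2.4.6, scipy 1.17.1, pandas 2.3.3 and matplotlib 3.10.9 were used. Positions came from GENCODE on GRCm38.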

Additional observations from a re-analysis of the deposited data

Results flagged for a closer look

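The airway ratio, the level in the fifth of spots with most Cyp2f2 over that in the fifth with least, ran in opposite directions in the 2 sections for 3 of the 4 genes. It was 1.53 in the metastatic and 0.838 in the control lung for Sftpa1, 1.25 and 0.408 for Sftpb, and 1.70 and 0.709 for Sftpd. The metastatic ratio of Sftpb was 1.00 without the tumour-marker-rich spots and 0.955 after thinning each spot to 5000 counts. The difference between the sections was not tested, since each condition has 1 section. In the metastatic lung, 60.8% of the spots in the fifth with least Cyp2f2 were also in the lower of 3 classes of Ager, against 14.8% in the control lung. Between spots high in Cyp2f2 and low in Ager and spots low in Cyp2f2 and high in Ager, the metastatic ratios were 0.772, 0.424 and 0.943.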

How the results depend on the processing

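The ratios relative to Sftpc stayed above 1 for all 3 other genes in both sections under every alternative run, and the metastatic-over-control ratio of Sftpb, Sftpc and Sftpd stayed below 1. The tenth of spots with most Cyp2f2 was not among these alternatives. In it, the metastatic-over-control ratio was 1.03 for Sftpb, 1.05 for Sftpc and 1.00 for Sftpd. Of 166 alternative values, 47 moved by less than the counting interval of the value in the report or not at all, 100 moved by more than that and kept their direction, and 19 changed direction; these are given here, and the cause was not tested. Direction was the side of 1 on which the value fell, and some intervals cover 1. The metastatic airway ratio of Sftpb after thinning, 0.955 (0.891 to 1.02), was labelled changed. Without the tumour-marker-rich spots, at 1.00 (0.958 to 1.05), it was labelled kept. The 47 include the ratios relative to Sftpc under the settings that could not change them. No paired analysis was possible because each condition has 1 section. Depth limits Sftpd most: at a median of 9644 counts per spot it has about 5 counts a spot, so it was read from sums over spots. Within the control lung, the changes of direction fell on Sftpa1 and Sftpd, and within the metastatic lung on all 4 genes.

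With a library size that omitted 422 abundant genes, Scgb1a1 among them, the airway ratio in the control lung was 1.45 for Sftpa1, 0.706 for Sftpb, 0.465 for Sftpc and 1.23 for Sftpd, and in the metastatic lung 2.996 for Sftpa1, 2.44 for Sftpb, 1.25 for Sftpc and 3.32 for Sftpd. The alveolar ratio in the control lung was 0.710 for Sftpa1, 1.61 for Sftpb, 2.42 for Sftpc and 0.839 for Sftpd, and in the metastatic lung 1.61 for Sftpa1, 3.48 for Sftpb, 5.58 for Sftpc and 1.32 for Sftpd. In counts per spot, with no library size, the airway ratio in the control lung was 1.65 for Sftpa1, 0.801 for Sftpb, 0.528 for Sftpc and 1.39 for Sftpd, and in the metastatic lung 2.54 for Sftpa1, 2.06 for Sftpb, 1.06 for Sftpc and 2.81 for Sftpd. The alveolar ratio in the control lung was 0.731 for Sftpa1, 1.66 for Sftpb, 2.50 for Sftpc and 0.864 for Sftpd, and in the metastatic lung 0.961 for Sftpa1, 2.07 for Sftpb, 3.32 for Sftpc and 0.785 for Sftpd. The metastatic-over-control ratio was 1.04 for Sftpa1, 0.788 for Sftpb, 0.652 for Sftpc and 0.816 for Sftpd. Ranked by summed other club or AT1 markers, the airway ratio in the control lung was 0.806 for Sftpa1, 0.440 for Sftpb and 0.292 for Sftpc, and in the metastatic lung 1.67 for Sftpa1, 1.44 for Sftpb and 0.754 for Sftpc. The alveolar ratio in the control lung was 4.00 for Sftpc. The airway ratio relative to Sftpc in the control lung was 2.76 for Sftpa1 and 2.39 for Sftpd, and in the metastatic lung 2.21 for Sftpa1 and 2.39 for Sftpd. With classes of 10% of spots in place of 20% (in the metastatic lung the class with least Cyp2f2 then holds the shallowest of 215 spots without a count), the airway ratio in the control lung was 0.289 for Sftpb, 0.114 for Sftpc and 0.624 for Sftpd, and in the metastatic lung 0.884 for Sftpa1, 0.533 for Sftpb, 0.211 for Sftpc and 1.06 for Sftpd. The alveolar ratio in the control lung was 1.19 for Sftpa1, 3.56 for Sftpb and 10.6 for Sftpc, and in the metastatic lung 3.03 for Sftpa1, 7.37 for Sftpb, 16.5 for Sftpc and 2.46 for Sftpd. The airway ratio relative to Sftpc in the control lung was 7.48 for Sftpa1, 2.53 for Sftpb and 5.46 for Sftpd, and in the metastatic lung 4.19 for Sftpa1, 2.52 for Sftpb and 5.03 for Sftpd. After thinning each spot to 5000 counts, the airway ratio in the control lung was 0.457 for Sftpb and 0.332 for Sftpc, and in the metastatic lung 1.15 for Sftpa1, 0.955 for Sftpb, 0.610 for Sftpc and 1.28 for Sftpd. The alveolar ratio in the control lung was 1.27 for Sftpa1, 2.59 for Sftpb and 3.52 for Sftpc, and in the metastatic lung 2.08 for Sftpa1, 3.58 for Sftpb and 4.30 for Sftpc. The airway ratio relative to Sftpc in the control lung was 2.47 for Sftpa1, 1.38 for Sftpb and 2.09 for Sftpd, and in the metastatic lung 1.89 for Sftpa1, 1.56 for Sftpb and 2.10 for Sftpd. The metastatic-over-control ratio was 0.887 for Sftpa1, 0.688 for Sftpb, 0.579 for Sftpc and 0.708 for Sftpd. Without the tumour-marker-rich spots and the 50 control spots highest in cardiac muscle genes, the airway ratio in the control lung was 0.812 for Sftpa1, 0.393 for Sftpb and 0.259 for Sftpc, and in the metastatic lung 1.27 for Sftpa1, 1.00 for Sftpb, 0.505 for Sftpc and 1.45 for Sftpd. The alveolar ratio in the control lung was 1.20 for Sftpa1, 2.70 for Sftpb and 4.07 for Sftpc, and in the metastatic lung 1.60 for Sftpa1, 3.35 for Sftpb, 5.26 for Sftpc and 1.35 for Sftpd. The airway ratio relative to Sftpc in the metastatic lung was 2.51 for Sftpa1. The metastatic-over-control ratio was 0.874 for Sftpa1, 0.665 for Sftpb and 0.552 for Sftpc. Between spots high in Cyp2f2 and low in Ager and spots low in Cyp2f2 and high in Ager, a choice made after seeing the data, the airway ratio in the control lung was 0.387 for Sftpb, and in the metastatic lung 0.771 for Sftpa1, 0.424 for Sftpb, 0.206 for Sftpc and 0.943 for Sftpd. The airway ratio relative to Sftpc in the control lung was 1.44 for Sftpb, and in the metastatic lung 3.75 for Sftpa1, 2.06 for Sftpb and 4.58 for Sftpd. In spots matched on Ager and Cyp2f2, also chosen after seeing the data, the metastatic-over-control ratio was 0.901 for Sftpa1, 0.742 for Sftpb and 0.637 for Sftpc.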
